A study of Homo sapiens with 13 samples.

Results

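Docetaxel alone was compared with vehicle in PC3 shTIMP1 cells, and the comparison rests on 7 of the 13 bulk RNA-seq libraries of the series, 3 labelled Vehicle and 4 labelled Docetaxel. PC3 is an established human prostate cancer line of epithelial type, and the cells of every group carried shTIMP1, a hairpin that targets the gene of the metalloproteinase inhibitor TIMP1. Docetaxel was given at 1 nM and all exposures lasted 48 h in serum-containing medium; the other libraries are 3 of Adapalene, a synthetic retinoid at 5 µM, and 3 of Combo, both drugs together, whose doses the labels do not restate. Replicates are described as technical in the design text; p-values therefore reflect only the spread between libraries of 1 experiment, and the labels do not say whether the hairpin line is 1 clone or a pool. All genes that passed a filter on low counts are members of the comparison: 15734 of 67882 gene identifiers in the deposited table, of which 14390 carry a gene name.

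Docetaxel is a taxane. It binds beta-tubulin inside the microtubule and stabilises the polymer, so that spindle dynamics fail; cells may then arrest in mitosis, divide unequally or leave mitosis without dividing. In prostate cancer it is the standard cytotoxic drug after androgen deprivation, and PC3 cells, which do not depend on androgen, are widely used as a model for it. Microtubule damage is also known to activate stress kinases of the JNK and p38 families, and micronuclei left by faulty divisions can expose DNA to cytosolic sensors that induce interferon.

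Levels are CPM, counts divided by library size after TMM scaling, given as mean ± SD over 3 Vehicle and 4 Docetaxel libraries where an error is printed, and fold changes are on the log2 scale with Docetaxel minus Vehicle. Called genes are those with a Benjamini-Hochberg adjusted p under 0.05 over all genes tested, from the edgeR quasi-likelihood test; "rose" and "fell" are used of called genes only. Library totals ran from 11948720 to 16235041 counts, and libraries of 1 group correlated at 0.989 to 0.993 across genes. Mitochondrially encoded genes took 0.722 to 2.62% of counts, with the highest shares in Vehicle replicate 3 and Docetaxel replicate 4. TIMP1 itself stood at 55, 65 and 61.9 CPM in the Vehicle libraries and at 56.2, 62, 71 and 64.7 CPM in the Docetaxel libraries, which overlap (edgeR adjusted p = 0.727), and no hairpin-free cells were analysed here. The keratin genes KRT8 and KRT18 and the adhesion gene EPCAM were present at 1034 to 1179, 703 to 728 and 264 to 241 CPM (Vehicle to Docetaxel), and KLK3, the prostate-specific antigen gene, had 0 counts in every library. Several defining genes of other cell types were at or near 0: CD3E, MS4A1 and NKG7 had at most 1 count in any library, DCN and THY1 at most 2, and CDH5 and VWF at most 8. Not all markers were this scarce: of 5 endothelial markers 3 passed the count filter, with log2 from −0.41 to 0.75, and 0 were called. Of 8 fibroblast markers 3 were tested and 1 rose, FAP, from 0, 0 and 0.124 CPM to 1.28, 0.986, 0.596 and 0.974 CPM, and it failed the count filter without Docetaxel replicate 1, 2 or 4.

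Docetaxel raised 2073 genes and lowered 2009, together 4082 or 25.9% of the genes tested (13.2% higher and 12.8% lower). Large changes were mostly rises: 854 genes rose at least 2-fold (5.43% of genes tested) and 60 fell at least 2-fold (0.381%). With scaling by library totals alone the calls split as 2373 higher and 1466 lower (61.8% of calls higher, against 50.8% with TMM), while the median over all genes moved from −0.02 to 0.02. Counts of calls were sensitive to single libraries: 2347 genes were called without Vehicle replicate 2 and 2660 without Docetaxel replicate 2, and falls numbered 1052, 1242 and 1191 without Vehicle replicate 2, Docetaxel replicate 1 and Docetaxel replicate 2. In bulk RNA, fewer cells of a kind and less RNA per cell cannot be told apart.

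The balance of rises and falls differed with abundance. Split into 5 classes by mean level, the least abundant (at most 2.06 CPM over the 13 libraries) held 552 rises and 29 falls among 3147 genes, with a median log2 of 0.33, whereas in the most abundant class (at least 82.5 CPM) 312 rose and 680 fell, with a median of −0.08. A gene can pass the count filter through 1 group alone, so scarce genes that passed are not all scarce genes. Among scarce genes the filter favours those that differ between groups. In the next class, 2.06 to 11.9 CPM, 467 rose and 186 fell, and with a count minimum of 50 rises of at least 2-fold numbered 355. More genes were also detected with docetaxel. When every library was thinned to 11948720 counts, 21407, 21252 and 22006 genes had a count in Vehicle replicates 1 to 3 and 23567, 23976, 23197 and 23976 in Docetaxel replicates 1 to 4, with no overlap. Long intergenic RNAs rose in 184 of 794 cases and fell in 17, antisense RNAs rose in 146 of 939 and fell in 16, and protein-coding genes rose in 1543 of 12655 and fell in 1943. Within the least abundant class the share that rose was nearer between kinds of gene, 18.6% of protein-coding genes, 21.8% of long intergenic RNAs and 15.9% of antisense RNAs.

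**Figure D1:**
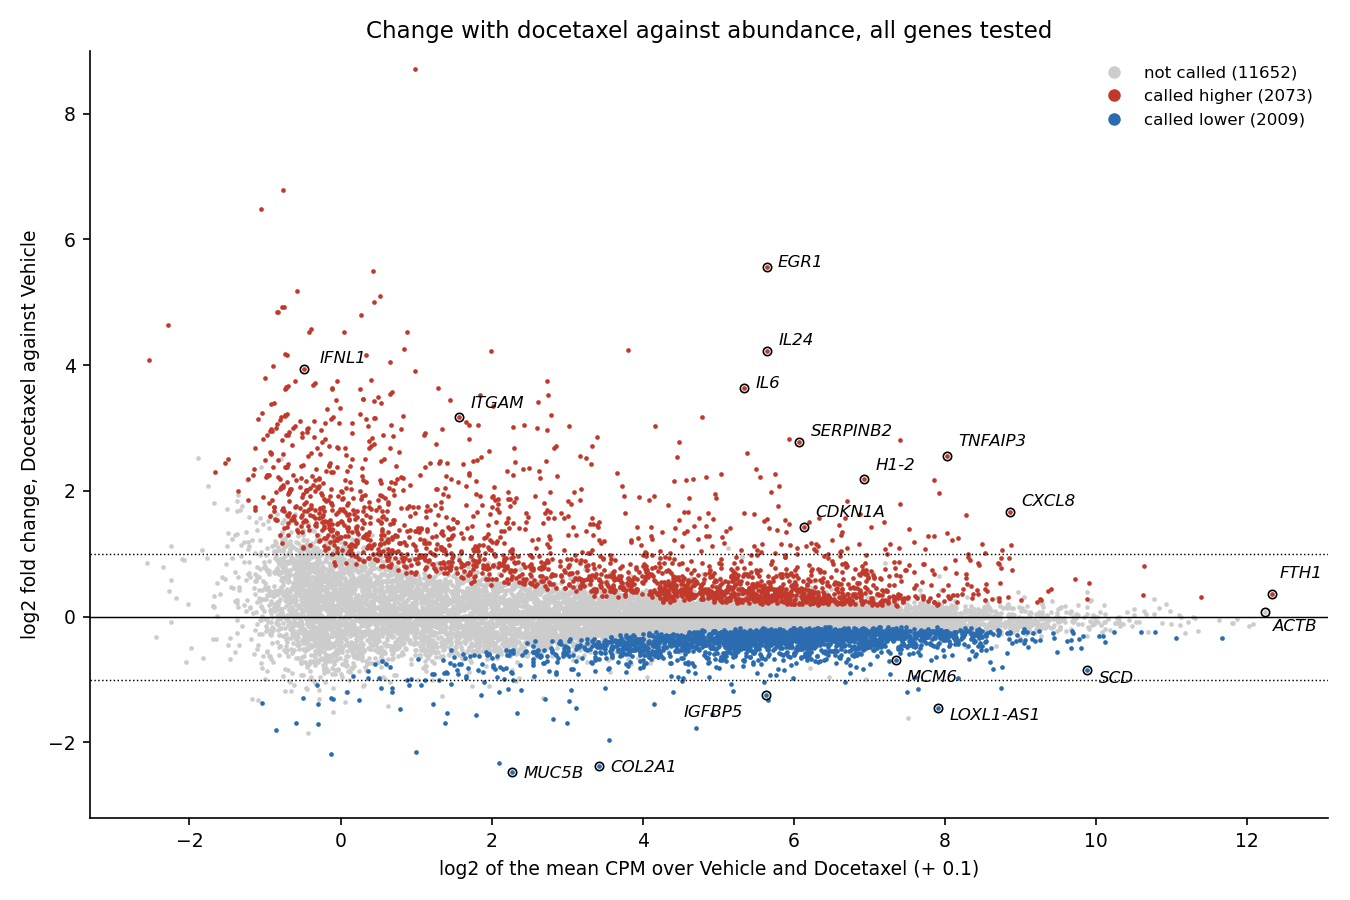
Log2 fold change of every gene tested (vertical axis) against the log2 of its mean CPM over the Vehicle and Docetaxel libraries (horizontal axis, with 0.1 CPM added); red points rose, blue points fell, grey points were not called, and dotted lines mark a 2-fold change. Points beyond the dotted lines are mostly rises (854 against 60 falls) and cluster at low abundance, while named genes such as EGR1, TNFAIP3 and CXCL8 stand out at higher levels.

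Gene lists, chosen with earlier results of these data known, are described below by how many tested members passed and by the median log2 of the list, to be read against −0.02 for all genes. Counts of called members are to be read against 13.2% higher and 12.8% lower over all genes, and several lists lie near these shares. Lists in which most tested members rose were the clustered histones (32 of 35), NF-kappaB (18 of 20), interferon-stimulated genes (32 of 39), immediate-early factors (21 of 26), chemokines (9 of 14), interleukins and colony-stimulating factors (14 of 24) and interferon ligands with nucleic acid sensing (13 of 25). Lists in which most fell were DNA replication (32 of 44), cholesterol and fatty acid synthesis (20 of 31), high mobility group genes (6 of 10) and mitosis (22 of 42). Members called the other way by edgeR numbered 1 in the list of interferon ligands and sensing and 0 in the others; at an unadjusted p under 0.05 they numbered 2 in that list, 1 each in the mitosis and high mobility group lists and 0 in the others.

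**Figure D2:**
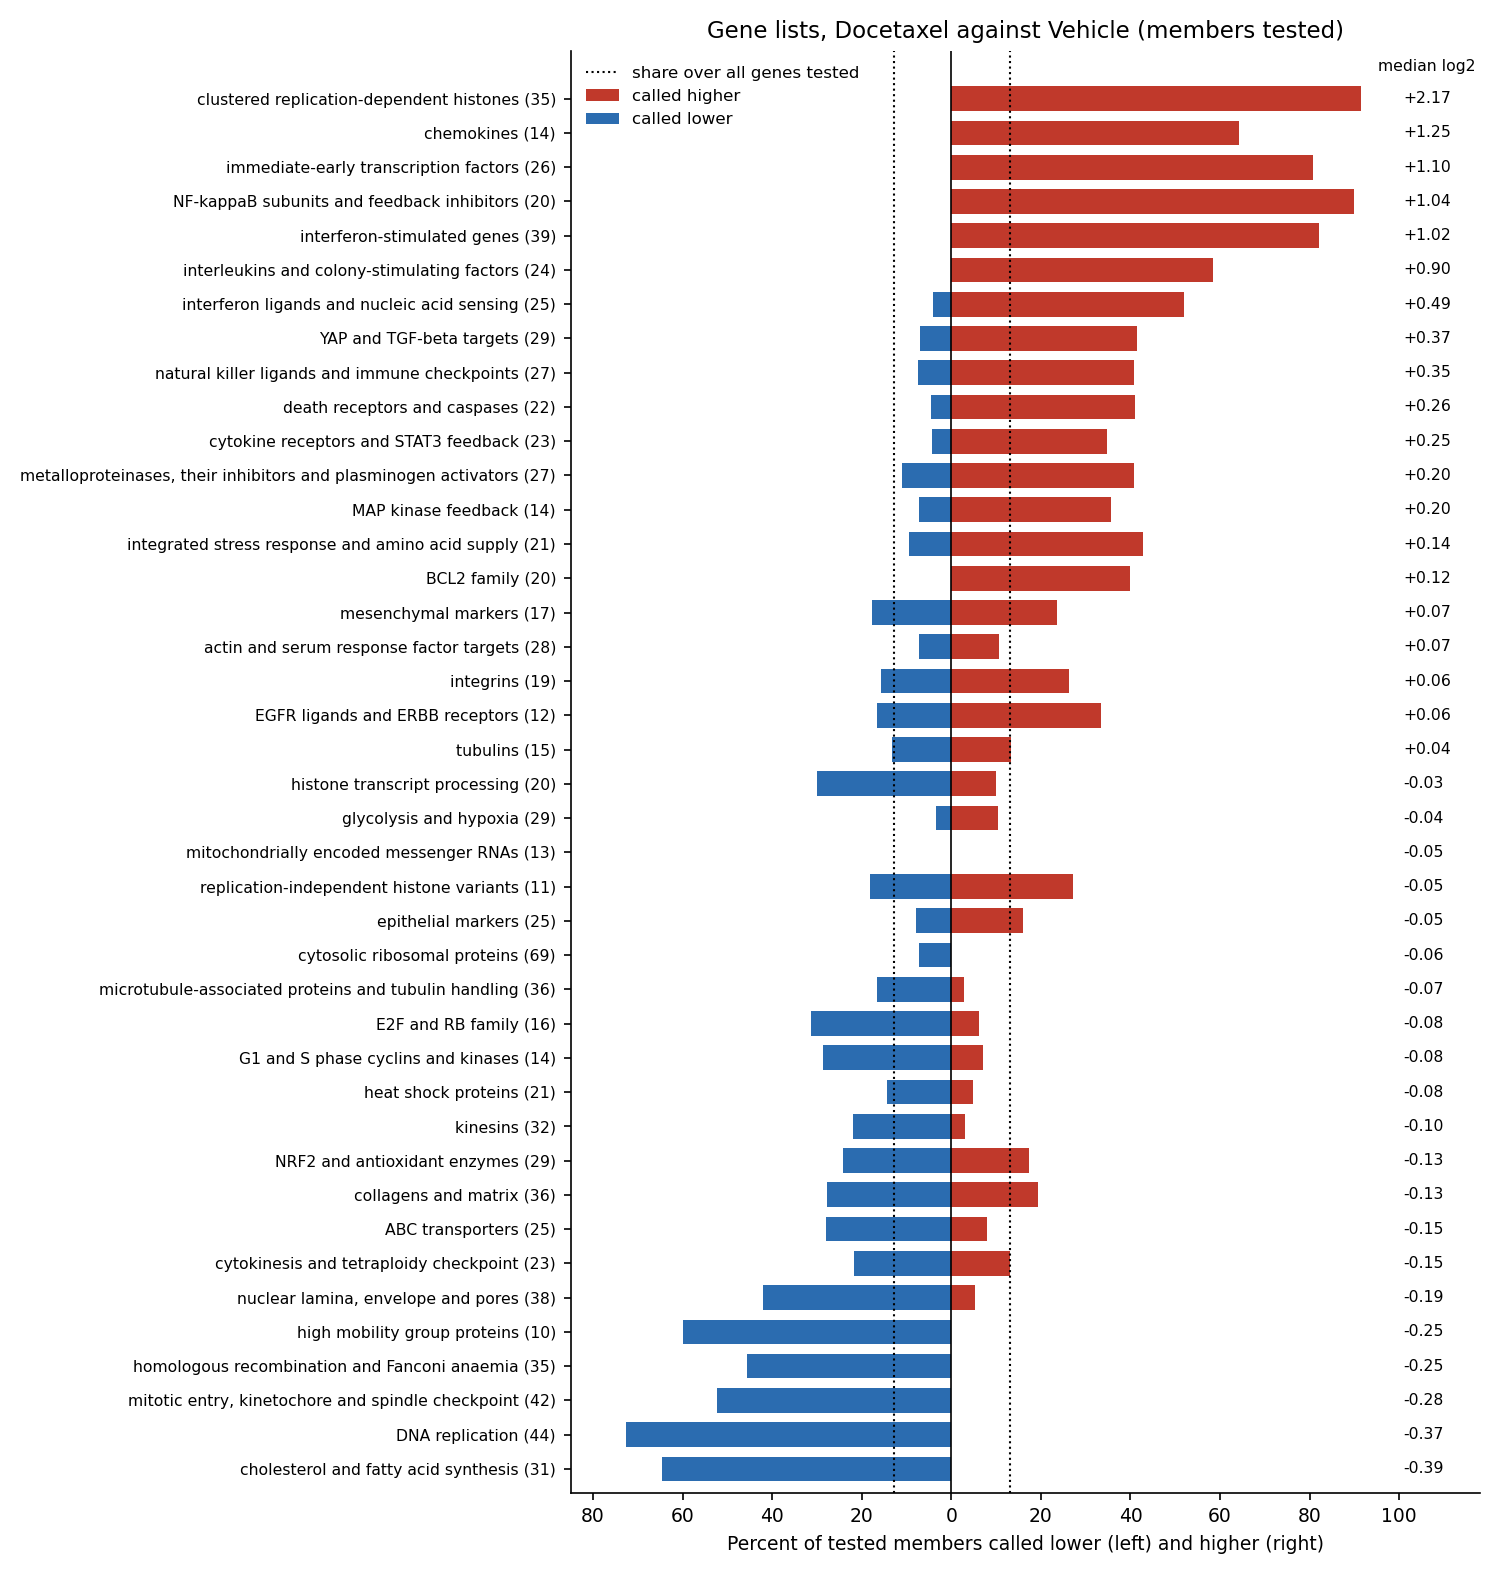
Percent of tested members called lower (blue, left) and higher (red, right) for gene lists with at least 10 tested members, whose number is in brackets; dotted lines mark the shares over all genes tested (12.8% lower, 13.2% higher) and the right column gives each list's median log2. Histone, NF-kappaB, interferon and immediate-early lists extend far to the right and DNA replication and lipid synthesis far to the left, while tubulins and mitochondrial messenger RNAs stay at or under the background.

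Immediate-early genes were among those with the largest changes. These genes encode transcription factors of the FOS, JUN, EGR, NR4A and ATF families, which are induced within minutes by growth factors, stress kinases and calcium, usually without new protein synthesis. Of 26 tested members 21 rose, 14 of them at least 2-fold, and 0 fell (median 1.10). EGR1, a zinc-finger factor downstream of the MAP kinases (chromosome 5, 138465490 to 138469315), is shown first because it had the largest rise among protein-coding genes with a mean of at least 5 CPM in the higher group. Its promoter holds 2 CArG boxes, the element bound by serum response factor, in capitals below; they lie 105 and 83 bases before the start (RefSeq, GRCh38.p14, chr5:138465229-138465478, plus strand, read 5′ to 3′).
EGR1: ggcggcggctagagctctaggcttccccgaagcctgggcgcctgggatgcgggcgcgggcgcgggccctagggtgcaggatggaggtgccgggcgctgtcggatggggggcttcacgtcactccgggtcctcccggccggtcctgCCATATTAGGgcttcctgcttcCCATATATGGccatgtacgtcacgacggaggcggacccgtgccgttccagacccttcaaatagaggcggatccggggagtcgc
A CArG box was found on either strand in 1.14% of all 27305 promoters of 250 bases and in 2 of the 21 promoters of the immediate-early list. A match is a description of the sequence, and binding was not measured.

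In Vehicle replicates 1 to 3, in that order here and below, EGR1 had 3.19, 1.42 and 1.61 CPM, against 99, 113, 99.1 and 78.9 CPM in Docetaxel replicates 1 to 4. Every Docetaxel library lay far above every Vehicle library, and Vehicle replicate 1 was the highest of its group. The fitted change was 47.4-fold (log2 5.57, SE 0.41, edgeR adjusted p = 7.06e-07). ATF3, a stress-induced factor of the ATF/CREB family, went from 43.4, 41.1 and 42.4 CPM to 300.2, 316, 262 and 306 CPM (log2 2.81, SE 0.24, edgeR adjusted p = 2.39e-06), with Docetaxel replicate 3 the lowest of the treated libraries. FOS, the partner of JUN in the AP-1 dimer, was scarce in Vehicle at 0.942, 0.994 and 1.92 CPM and rose to 8.39, 10.4, 7.07 and 7.67 CPM (log2 2.68). JUN rose from 94.9 ± 14 to 200.4 ± 27.1 CPM (log2 1.08) and the orphan nuclear receptor gene NR4A2 from 2.84 ± 0.366 to 9.89 ± 2.39 CPM (log2 1.80). The groups did not overlap for any of these genes, a trait shared in this direction by 17.9% of all genes tested. FOSL1, a FOS relative, stood higher in all 4 Docetaxel libraries by a small margin and was not called, at 821, 882 and 740.2 CPM in Vehicle and 923, 989, 919 and 892 CPM in Docetaxel (log2 0.19, edgeR adjusted p = 0.0882); FOSL1 passed with the replicate number as a block (edgeR adjusted p = 0.0381), with library totals only and with the stricter filter.

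Inhibitors of MAP kinase signalling were raised in part. Of 14 tested members 5 rose and 1 fell (median 0.20), with 3 rises without Vehicle replicate 1 and 0 falls without any 1 of Vehicle replicates 2 and 3 and Docetaxel replicates 1 to 3. The phosphatase gene DUSP1, which inactivates JNK and p38, rose from 20.9 ± 2.43 to 82.6 ± 11 CPM (log2 1.98), and DUSP10, which acts on the same kinases, from 7.29 ± 0.916 to 26.4 ± 2.63 CPM (log2 1.86). SPRY2, an inhibitor of receptor tyrosine kinase signalling, rose by 0.65. The ERK phosphatase gene DUSP6 was not called and its libraries overlapped (47 ± 8.47 and 55 ± 2.7 CPM, edgeR adjusted p = 0.1003), but it passed without Vehicle replicate 3 (edgeR adjusted p = 0.00954). Ligands of the epidermal growth factor receptor rose: HBEGF stood at 39.7, 35.6 and 30.6 CPM in Vehicle and 82.8, 83.1, 79.9 and 67.4 CPM in Docetaxel (log2 1.15), AREG went from 74.2 ± 4.06 to 133 ± 9.1 CPM (log2 0.84), EPGN from 60.9 ± 7.19 to 101 ± 11.1 CPM (log2 0.74) and EREG from 1.92 ± 0.166 to 3.9 ± 0.593 CPM (log2 1.03). EGFR, their receptor, was not called (log2 0.27, edgeR adjusted p = 0.139). Of the 12 tested ligand and receptor genes 4 rose and 2 fell, and 1 fell without any 1 of Vehicle replicates 2 and 3 and Docetaxel replicates 1, 2 and 3.

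**Figure D3:**
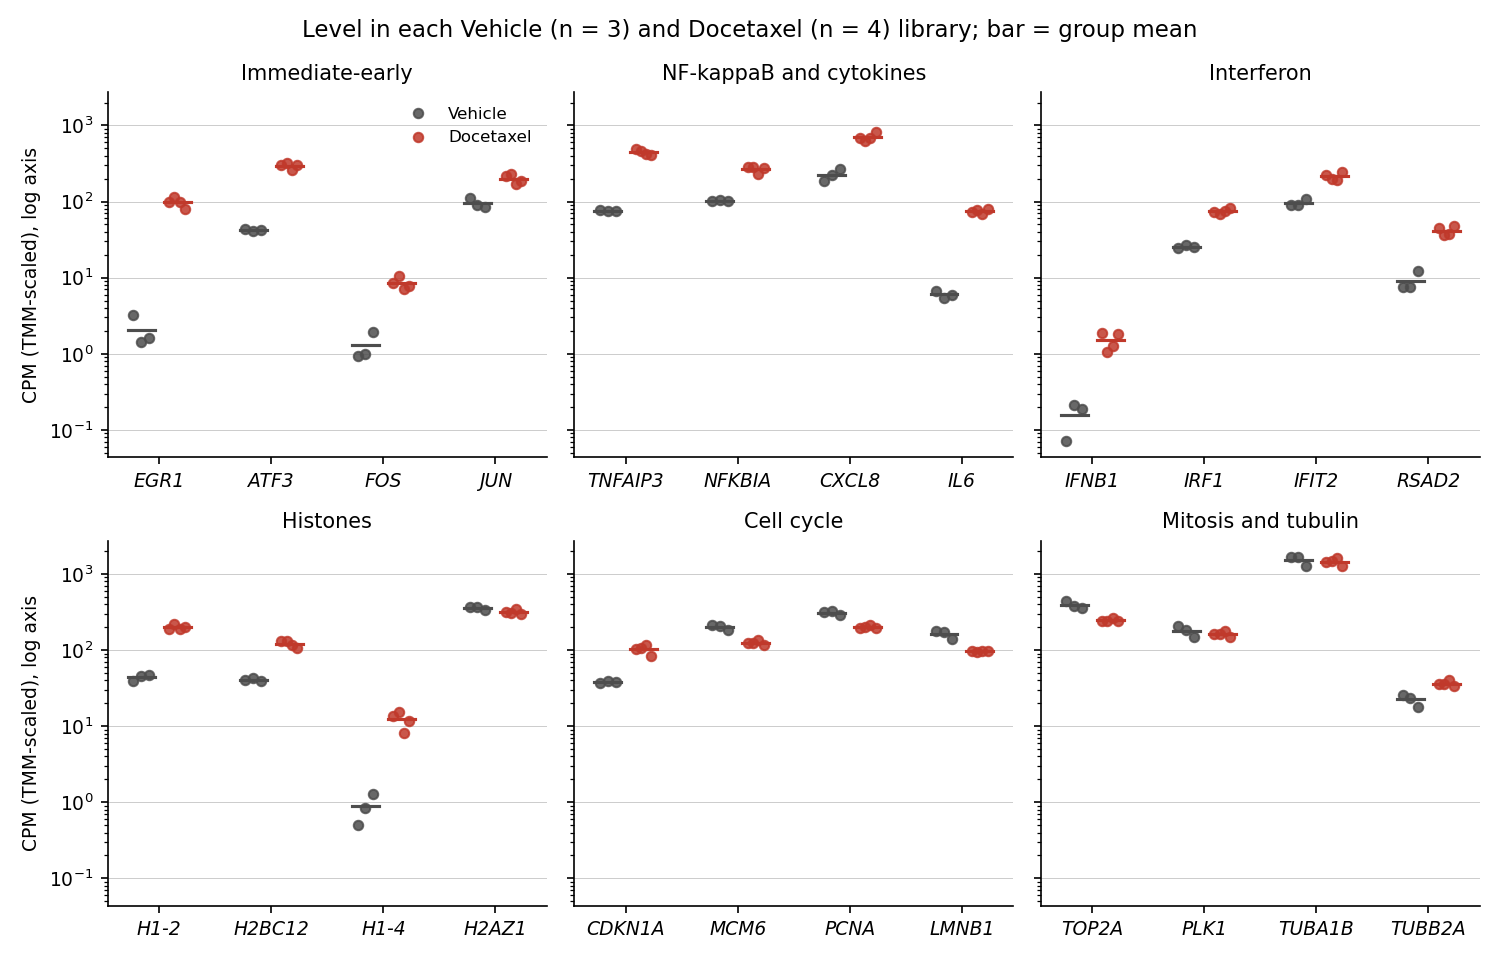
CPM of 24 genes in each of the 3 Vehicle (grey) and 4 Docetaxel (red) libraries on a log axis, in 6 panels by gene group, with a bar at each group mean. Red points lie above grey points for the immediate-early, NF-kappaB, interferon and most histone genes and below them for MCM6, PCNA, LMNB1 and TOP2A, while PLK1, TUBA1B and H2AZ1 overlap.

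NF-kappaB is a family of dimeric factors held in the cytoplasm by inhibitors of the IkappaB class, and it induces its own inhibitors along with cytokine genes. Of 20 tested subunits and feedback inhibitors 18 rose, 10 of them at least 2-fold, and 0 fell (median 1.04). TNFAIP3, the A20 deubiquitinase that restrains the pathway (chromosome 6, 137867188 to 137883312), stood at 78.4, 74.9 and 74.4 CPM in Vehicle and at 497, 463, 421 and 406 CPM in Docetaxel. The Vehicle libraries were tight and the Docetaxel libraries were all several times higher (log2 2.56, SE 0.28, edgeR adjusted p = 1.72e-05). NFKBIA, the IkappaB-alpha gene, went from 101, 105 and 101 CPM to 281, 282, 231 and 279 CPM (log2 1.39), with Docetaxel replicate 3 apart from the other 3. The adaptor gene TRAF1 rose from 5.49 ± 0.711 to 49.3 ± 3.86 CPM (log2 3.17) and BIRC3, a ubiquitin ligase that protects from cell death, from 76 ± 6.98 to 263 ± 9.39 CPM (log2 1.79). The subunit genes rose too, NFKB2 by 0.75 and NFKB1 by 0.53.

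Secreted inflammatory signals rose with them. Chemokines attract leukocytes through G protein-coupled receptors, and several sit in a cluster on chromosome 4. Of 33 listed chemokine genes 14 were tested, and of these 9 rose, 8 at least 2-fold, and 0 fell (median 1.25). Scarce members could pass the count filter through the Docetaxel libraries alone, which favours rises among those tested. Rises numbered 8 to 10 over the alternatives. CXCL2 (chromosome 4, 74097035 to 74099293) is shown for its NF-kappaB match, GGG, any 2 bases, and TTTCC or TNTCC, on either strand, in capitals, 78 bases before the start (RefSeq, GRCh38.p14, chr4:74099196-74099445, minus strand).
CXCL2: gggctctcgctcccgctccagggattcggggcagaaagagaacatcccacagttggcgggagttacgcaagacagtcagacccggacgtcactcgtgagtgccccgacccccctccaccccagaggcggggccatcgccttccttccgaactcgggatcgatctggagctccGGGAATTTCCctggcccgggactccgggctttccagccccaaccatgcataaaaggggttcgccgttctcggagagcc
This pattern was found in 5.24% of all promoters, 6 of 12 chemokine promoters and 8 of 18 promoters of the NF-kappaB list.

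CXCL2 went from 5.87, 3.98 and 6.94 CPM in Vehicle to 39.1, 42, 31.9 and 42 CPM in Docetaxel (log2 2.78, SE 0.25, edgeR adjusted p = 3.39e-06). CXCL8, the neutrophil attractant interleukin-8, stood at 184, 223 and 264 CPM and 691, 629, 689 and 823 CPM. No Docetaxel library came near a Vehicle library for either gene, and Docetaxel replicate 4 was highest for CXCL8 (log2 1.66). CXCL3 rose from 6.43 ± 0.513 to 37.3 ± 2.65 CPM, CXCL5 from 11.3 ± 2.05 to 54 ± 11.1 CPM, and CCL20, which attracts cells bearing CCR6, from 0.438 ± 0.129 to 4.81 ± 1.22 CPM (log2 3.44). CXCL10, an interferon-induced attractant of T cells, rose from a low level (0.672 ± 0.186 to 1.96 ± 0.933 CPM, log2 1.54). CCL2, the monocyte attractant, was not tested, with 0 or 1 count per library.

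Among 24 tested interleukins and colony-stimulating factors 14 rose and 0 fell (median 0.90). Here too scarce members could pass the count filter through the Docetaxel libraries alone, and 13 rose with the stricter filter. IL24, a cytokine of the IL10 family (chromosome 1, 206897443 to 206904139), stood at 6.38, 5.18 and 3.78 CPM in Vehicle and 104, 119, 89.9 and 68.1 CPM in Docetaxel. The 4 Docetaxel libraries spread widely, with replicate 4 lowest, yet all lay far above Vehicle (18.7-fold, log2 SE 0.37, edgeR adjusted p = 2.6e-06). IL6 stood at 6.67, 5.47 and 6.01 CPM and 73.9, 77.5, 67.9 and 80.1 CPM, and IL1A, an alarmin of the interleukin-1 family, at 1.01, 1.14 and 1.8 CPM and 12.3, 12.6, 11.2 and 13 CPM. Both were tight within groups and apart between them. CSF2, the GM-CSF gene, rose from 3.06 ± 0.0294 to 16.6 ± 1.51 CPM, and IL1B, the processed interleukin-1, from 14.7 ± 2.29 to 27.8 ± 3.39 CPM (log2 0.92). LIF, an IL6-family cytokine, rose by 0.57 and CSF3, the G-CSF gene, from 0.116 ± 0.0471 to 0.974 ± 0.129 CPM. TNF, a gene of the major histocompatibility region, had 0 counts in every library, which does not show that it was silent, since that region also has alternate sequences in the build and the counting of shared reads is not given.

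Receptors and intracellular feedback of these cytokines gave 8 rises and 1 fall of 23 tested (median 0.25), with 5 rises without Vehicle replicate 2. IL1RL1, the interleukin-33 receptor gene, stood at 13, 14.5 and 14.7 CPM in Vehicle and 47.1, 47.3, 44.3 and 37.5 CPM in Docetaxel (log2 1.64). IL1R2, a decoy receptor for interleukin-1, rose from 3.93 ± 0.177 to 12 ± 2.56 CPM, and IL20RB, a subunit of receptors for IL24, from 1.06 ± 0.118 to 2.74 ± 0.311 CPM. The STAT feedback inhibitors SOCS1 and SOCS3 rose by 1.11 and 0.41.

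Interferon genes and their targets were higher with docetaxel. Type I and type III interferons are secreted after nucleic acid sensing and act through STAT factors and IRF9 on genes that carry interferon-stimulated response elements. Of 25 tested ligands and sensing genes 13 rose and 1, MAVS (named after its values were seen), fell (median 0.49). Scarce members could pass the count filter through the Docetaxel libraries alone, and with the stricter filter, which drops such members, 9 rose. IFNB1, the interferon beta gene, stood at 0.0724, 0.213 and 0.186 CPM in Vehicle and at 1.85, 1.06, 1.28 and 1.83 CPM in Docetaxel, low levels that did not overlap (log2 3.18, SE 0.61, edgeR adjusted p = 0.00174). The type III gene IFNL1 stood at 0.0724, 0 and 0.124 CPM and 1.35, 1.34, 0.937 and 1.03 CPM, and IFNL3, a close paralog whose reads may be shared, at 0.0724, 0.071 and 0.062 CPM and 0.782, 0.845, 0.426 and 0.609 CPM; IFNL3 failed the count filter without Docetaxel replicate 1 or 2. IRF1, an interferon-induced transcription factor, went from 24.4, 26.8 and 25.2 CPM to 73.4, 67.6, 74.3 and 81.7 CPM (log2 1.55, SE 0.13). CGAS, the cytosolic DNA sensor, was not called and its libraries overlapped (33.4 ± 5.31 and 38.6 ± 4.53 CPM, edgeR adjusted p = 0.258). STING1, the adaptor it signals through, had 0 counts in every library. That count does not show that STING1 was silent, since no source used here gives the counting program or how shared reads were counted.

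Of 39 tested interferon-stimulated genes 32 rose, 22 at least 2-fold, and 0 fell (median 1.02); 23 rose without Vehicle replicate 1 or 2. IFIT1, which binds viral RNA lacking a methylated cap and was chosen for display after its values were seen, carries 2 response elements, GAAA, any 2 bases and GAAA, 116 and 103 bases before the start, both read on the opposite strand and set in capitals (RefSeq, GRCh38.p14, chr10:89392373-89392622, plus strand).
IFIT1: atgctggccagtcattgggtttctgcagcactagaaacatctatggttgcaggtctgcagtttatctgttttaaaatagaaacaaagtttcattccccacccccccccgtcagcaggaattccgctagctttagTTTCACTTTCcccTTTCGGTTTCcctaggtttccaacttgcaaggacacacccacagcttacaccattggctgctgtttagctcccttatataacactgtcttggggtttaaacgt
The element was found on either strand in 19 of 31 promoters of the interferon-stimulated list and in 3.07% of all promoters. IFIT1 stood at 60.5, 66.6 and 85 CPM in Vehicle and 187, 153, 199 and 220.0 CPM in Docetaxel (log2 1.42, SE 0.17). RSAD2, the antiviral enzyme viperin, went from 7.46, 7.6 and 12.1 CPM to 45.4, 35.9, 37.1 and 47.7 CPM (log2 2.19, SE 0.19, edgeR adjusted p = 2.42e-06). In both genes Vehicle replicate 3 was the highest of its group and still lay below every Docetaxel library. IFIT2, a relative of IFIT1, rose from 96.3 ± 9.7 to 215 ± 23.3 CPM, ISG15, a ubiquitin-like protein, from 211 ± 17.8 to 424 ± 76.6 CPM, and MX2, a dynamin-like antiviral GTPase, from 12.6 ± 2.8 to 49.2 ± 11 CPM. XAF1, an inhibitor of anti-apoptotic proteins, and TRIM22, an antiviral ubiquitin ligase, rose from low levels, 0.446 ± 0.151 to 2.79 ± 1.16 CPM and 1.62 ± 0.675 to 5.16 ± 2.21 CPM, and Docetaxel replicate 4 was the highest library for both. That replicate and Vehicle replicate 3, which also held the most mitochondrial counts of their groups, were highest in their groups for MX2, TRIM22, XAF1, IFIT1 and RSAD2; the part of the mitochondrial share in these values was not tested, and with both libraries left out 25 of the listed genes rose.

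Transcripts of clustered histone genes had the highest list median. These genes supply histones to newly replicated DNA, and their messenger RNAs normally end in a stem-loop in place of a poly(A) tail and are degraded when replication stops. Of 68 listed genes 66 were in the table and 35 were tested; 32 rose, 31 at least 2-fold, and 0 fell (median 2.17). Scarce members could pass the count filter through the Docetaxel libraries alone, which favours rises among those tested. With the stricter filter 20 rose, and the median was at least 1.62 in every alternative. Together the 66 genes in the table took 0.0195, 0.0203 and 0.0235% of counts in Vehicle replicates 1 to 3 and 0.0832, 0.0942, 0.0704 and 0.0821% in Docetaxel replicates 1 to 4. No Docetaxel share came near a Vehicle share. Adapalene libraries held 0.0193 to 0.0233% and Combo libraries 0.0305 to 0.0464%. Libraries were made from poly(A)-selected RNA, so tailed histone transcripts are favoured, and reads of near-identical copies make the value of a single gene uncertain.

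The promoter of H2BC12, which encodes an H2B, is printed for its 6 CCAAT boxes, the element bound by NF-Y, in capitals and read on either strand as CCAAT or ATTGG, 211 to 79 bases before the start (RefSeq, GRCh38.p14, chr6:27146859-27147108, minus strand).
H2BC12: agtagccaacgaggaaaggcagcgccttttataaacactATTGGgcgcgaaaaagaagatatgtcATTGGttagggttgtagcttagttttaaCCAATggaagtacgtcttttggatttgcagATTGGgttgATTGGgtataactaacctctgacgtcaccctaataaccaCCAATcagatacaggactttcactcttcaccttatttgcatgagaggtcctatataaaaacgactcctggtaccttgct
A CCAAT box was found in 30 of 34 promoters of the clustered histone list and in 33.0% of all promoters, and the TATA box TATAAA in 24 of 34 and in 11.1%. H2BC12 stood at 40.2, 42.9 and 38.8 CPM in Vehicle and 129.8, 133, 115 and 105 CPM in Docetaxel (log2 1.57, SE 0.09, edgeR adjusted p = 1.04e-07). The linker histone gene H1-2 (chromosome 6, 26055787 to 26056428) went from 39.5, 45.7 and 47 CPM to 189, 220.0, 190.4 and 199.98 CPM (log2 2.18, SE 0.11). Both sets were tight, with no overlap. Among the others H1-4, a linker histone gene, rose from 0.887 ± 0.398 to 12.3 ± 3.11 CPM, H1-3 from 0.672 ± 0.17 to 5.64 ± 1.16 CPM, H2BC7 from 0.737 ± 0.224 to 6.16 ± 1.98 CPM and H2BC17 from 0.257 ± 0.16 to 2.29 ± 0.685 CPM, with Docetaxel replicate 3 lowest in all 4 genes.

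**Figure D4:**
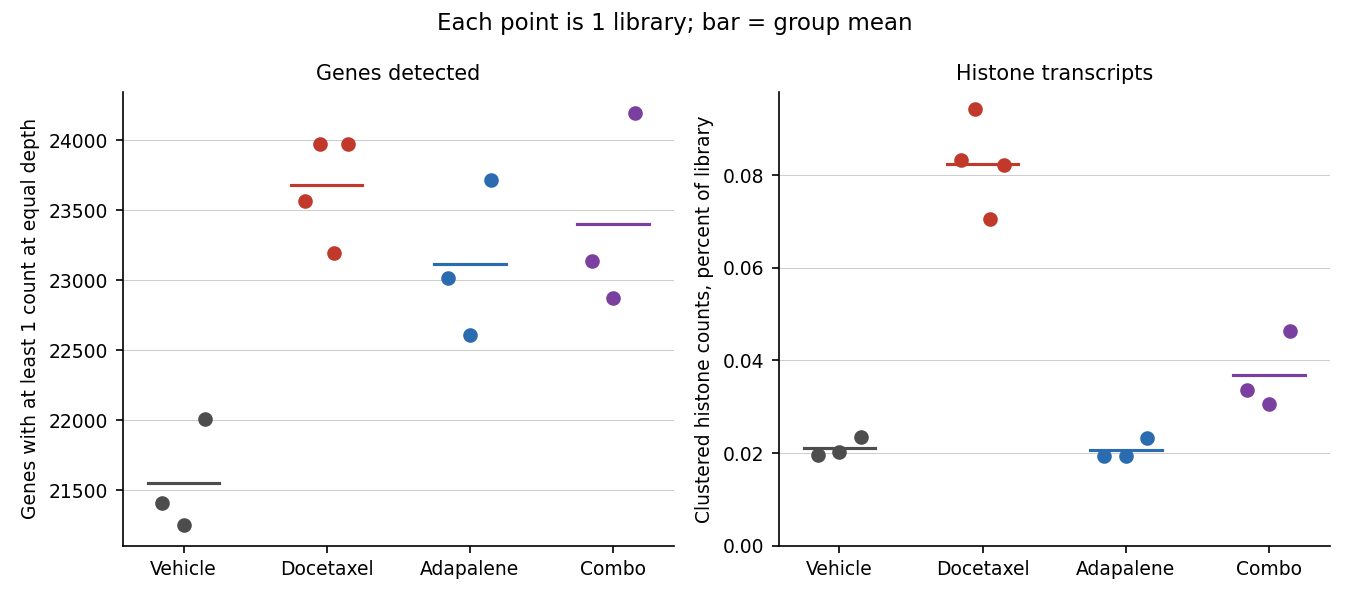
Left, genes with at least 1 count after thinning every library to the same depth (vertical axis does not start at 0); right, percent of each library's counts in clustered histone genes; each point is 1 library and bars are group means. Docetaxel libraries lie above Vehicle in both panels, and for histones they stand apart from all other groups, with Combo between them and Vehicle.

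Histone genes outside the clusters, whose transcripts are polyadenylated, did not follow this pattern. Of 11 tested variants 3 rose and 2 fell (median −0.05), and 1 fell without Vehicle replicate 1 or 2. The linker variant H1-10 went from 104, 129.5 and 108 CPM to 213, 198, 214 and 204 CPM (log2 0.86). H2AZ2, an H2A.Z gene, fell from 275 ± 12.1 to 204 ± 12.7 CPM (log2 −0.43), while H2AZ1 and the H3.3 gene H3-3A were not called (log2 −0.17 and −0.18). Factors that make and process histone messages gave 2 rises and 6 falls of 20 tested, with 1 rise without Vehicle replicate 2. SLBP, which binds the stem-loop, was not called and its libraries overlapped (60.3, 54.1 and 54.2 CPM and 57.8, 53, 58.4 and 51.8 CPM, edgeR adjusted p = 0.834). NPAT, the coactivator of histone genes, fell from 54.6 ± 1.98 to 44.7 ± 2.88 CPM, CPSF3, the nuclease that cuts histone pre-messenger RNA, from 123 ± 6.73 to 93.7 ± 7.61 CPM, and TUT7, a uridylyltransferase in histone message decay, rose from 42.7 ± 3.19 to 63.2 ± 5.89 CPM.

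Tubulin genes, which include those of the drug's target, were called about as often as all genes. Microtubules are polymers of alpha- and beta-tubulin, and cells are known to adjust tubulin message stability to the pool of free subunits. Of 15 tested tubulin genes 2 rose and 2 fell (13.3% each, against 13.2% and 12.8% of all genes). TUBA1B, the main alpha isotype in many lines, stood at 1649, 1664 and 1275 CPM in Vehicle and 1423, 1472, 1623 and 1269.9 CPM in Docetaxel, which overlap (log2 −0.08, edgeR adjusted p = 0.626). TUBA1C and TUBB4B overlapped as well (log2 0.02 and 0.04). TUBB3, the isotype tied to taxane resistance, was low and not called (1.59, 1.42 and 1.86 and 2.06, 3.94, 1.7 and 2.25 CPM, with Docetaxel replicate 2 high). TUBB2A rose from 25.7, 23.6 and 17.9 CPM to 35.9, 35.6, 40.2 and 33.6 CPM (log2 0.70, edgeR adjusted p = 0.00306), while TUBB6 was not called (log2 0.26, edgeR adjusted p = 0.0699) but was in 4 alternatives, among them without Vehicle replicate 1 (edgeR adjusted p = 0.0447). TUBB had only 7 to 17 counts in each library. It lies in the major histocompatibility region, which the full genome build also holds as alternate sequences; no source used here says how reads that match both were counted, so its low count says little about its level. The 2 falls became 0 without Vehicle replicate 2 or Docetaxel replicate 1 and 1 without Vehicle replicate 1 or Docetaxel replicate 2 or 4, and the 2 rises 1 without Vehicle replicate 3 or Docetaxel replicate 2.

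Among proteins that bind microtubules or handle tubulin 6 of 36 fell and 1 rose (16.7% and 2.78%, against 12.8% and 13.2% of all genes). There were 3 falls left without Docetaxel replicate 1 and 2 rises without Vehicle replicate 1 or Docetaxel replicate 3 or 4. VASH1 and VASH2, which remove the terminal tyrosine of alpha-tubulin, fell from 14.9 ± 1.34 to 8.46 ± 0.977 CPM (log2 −0.82) and from 6.87 ± 0.75 to 4.62 ± 0.0734 CPM (log2 −0.57). TBCD, a chaperone that assembles tubulin dimers, went from 87.3, 87.4 and 75.8 CPM to 49.9, 52.3, 58.8 and 52.6 CPM (log2 −0.65), without overlap. MAP4, the main structural microtubule-associated protein of non-neuronal cells, and TTC5, which starts tubulin message decay, were not called (log2 −0.11 and 0.03).

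Genes of mitosis fell modestly. Of 42 tested genes of mitotic entry, kinetochore and spindle checkpoint 22 fell and 0 rose (median −0.28), with no fall as large as 2-fold. TOP2A, the topoisomerase that untangles sister chromatids, stood at 436, 383 and 356 CPM in Vehicle and 239.5, 237, 266 and 243 CPM in Docetaxel; the treated libraries were tight and all below Vehicle (log2 −0.67, SE 0.11, edgeR adjusted p = 0.000481). SPC24, a kinetochore subunit, fell by 0.66, CENPF and DLGAP5, kinetochore and spindle proteins, by 0.47 and 0.47, and CDK1, the mitotic kinase, by 0.42 (247 ± 9.43 to 184 ± 18.1 CPM). Not every mitotic gene passed: CCNB1, the cyclin partner of CDK1, stood at 353, 333 and 309 CPM and 287, 299, 318 and 289 CPM (edgeR adjusted p = 0.208), PLK1, a kinase of mitotic entry, at 204, 181 and 147 CPM and 162, 162, 180.1 and 149 CPM (edgeR adjusted p = 0.468). Both overlapped between groups. The proliferation marker MKI67 stood lower in all 4 Docetaxel libraries, 684, 563 and 532 CPM against 487, 516, 464 and 500.2 CPM, without passing (edgeR adjusted p = 0.0857).

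Kinesins, the motors of the spindle and of transport, gave 7 falls and 1 rise of 32 tested, with 4 falls without Vehicle replicate 1 or 2 or Docetaxel replicate 1 or 2. KIF11, the motor that separates spindle poles, fell from 116 ± 8.12 to 90.6 ± 6.16 CPM and KIF20B, a motor of cytokinesis, from 66.8 ± 2.44 to 49.96 ± 2.39 CPM. KIFC3, a minus-end motor, rose from 65.3 ± 5.83 to 97.6 ± 7.99 CPM (log2 0.58). In the list of cytokinesis and the checkpoint for extra centrosomes 3 of 23 rose and 5 fell, 3 without Vehicle replicate 3. The share of this list that rose was about that of all genes (13.2%), and 21.7% fell, against 12.8% of all genes. RHOB, a small GTPase gene, stood at 23.8, 21 and 19 CPM in Vehicle and 38.6, 43.7, 34.9 and 32.3 CPM in Docetaxel, and LATS2, a Hippo kinase activated in tetraploid cells, at 26.9, 29.96 and 25.7 CPM and 45.8, 48.6, 43.8 and 43.3 CPM. Neither overlapped (log2 0.81 and 0.72). CASP2, the caspase of the PIDDosome, which senses extra centrosomes, fell from 79.7 ± 3.85 to 57.8 ± 3.13 CPM (log2 −0.46). Its activator gene PIDD1 stood at 41.9 ± 3.47 and 29.9 ± 3.83 CPM (edgeR adjusted p = 0.0124), which did not pass when Vehicle replicate 3 was left out (edgeR adjusted p = 0.0511).

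The CDK inhibitor gene CDKN1A rose while most genes of DNA replication fell. CDKN1A, the p21 inhibitor of cyclin-dependent kinases (chromosome 6, 36676460 to 36687339), went from 36.9, 39.8 and 37.6 CPM in Vehicle to 103, 107, 118 and 82.8 CPM in Docetaxel. The Vehicle libraries were tight, and Docetaxel replicate 4 was the lowest treated library but more than 2 times any of them (log2 1.43, SE 0.15, edgeR adjusted p = 1.18e-05). CDKN2C, an inhibitor of CDK4 and CDK6, fell from 41.5 ± 2.22 to 25.9 ± 1.21 CPM (log2 −0.68). SKP2, the ubiquitin ligase subunit that removes CDK inhibitors, stood at 137, 129 and 122 CPM and 75.6, 79.7, 84.7 and 73 CPM (log2 −0.73, SE 0.07). CDK6 rose by 0.53 and CDC7, a kinase that fires replication origins, fell by 0.41. The cyclin genes CCND1, CCNE1 and CCNE2 were not called (log2 −0.01, −0.06 and −0.38), and CCND1 overlapped between groups at 923 ± 81.2 and 919 ± 59.9 CPM; CCNE2 passed without Docetaxel replicate 3 (edgeR adjusted p = 0.0455). E2F1, the factor that drives S phase genes, fell from 120.4, 112 and 100.0 CPM to 77.3, 79.2, 80.8 and 70.4 CPM (log2 −0.53), E2F8, a repressor of the family, by 0.44, and RBL2, the pocket protein p130, by 0.59. Of the 14 cyclins and kinases 4 fell and 1 rose, and of the 16 E2F and RB family genes 5 fell and 1 rose; the falls numbered 2 and 3 without Vehicle replicate 1, Vehicle replicate 2 or Docetaxel replicate 4, and 2 of the first list without Docetaxel replicate 2. The E2F list had 0 rises without Vehicle replicate 2 or 3 or Docetaxel replicate 1 or 2.

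All 44 listed DNA replication genes were tested; 32 fell (72.7%, against 12.8% of all genes) and 0 rose, with a median of −0.37. MCM6, a subunit of the replicative helicase, is printed for its pair of E2F matches, TTTNGCGC on either strand, which overlap on both strands in each of 2 stretches, in capitals, 152 to 86 bases before the start (RefSeq, GRCh38.p14, chr2:135876444-135876693, minus strand).
MCM6: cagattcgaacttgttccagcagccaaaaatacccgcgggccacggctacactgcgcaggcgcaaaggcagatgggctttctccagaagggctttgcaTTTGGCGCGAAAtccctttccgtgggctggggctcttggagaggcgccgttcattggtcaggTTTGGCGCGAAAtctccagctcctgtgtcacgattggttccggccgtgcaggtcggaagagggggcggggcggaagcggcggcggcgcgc
This pattern was found in 8 of 37 promoters of the list and in 1.54% of all promoters; those of PCNA and MCM3 hold no match to these letters. MCM6 stood at 214, 206 and 184 CPM in Vehicle and 122, 122, 136 and 118 CPM in Docetaxel (log2 −0.70, SE 0.09, edgeR adjusted p = 6.08e-05). PCNA, the sliding clamp, went from 316, 322 and 289 CPM to 196, 198, 216 and 193 CPM (log2 −0.62), and the treated libraries were again tighter than the gap between groups. MCM3, another helicase subunit, and GINS2, of the helicase complex, fell by 0.63 and 0.64. RRM2, the ribonucleotide reductase subunit, was not called (366 ± 34.5 and 321 ± 33.6 CPM, edgeR adjusted p = 0.257).

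Homologous recombination and Fanconi anaemia genes, which repair breaks and crosslinks, gave 16 falls and 0 rises of 35 (median −0.25). FANCI fell from 162 ± 4.04 to 114 ± 6.76 CPM, BRCA1 from 76.8 ± 2.91 to 55.6 ± 1.92 CPM and RAD54L, a recombination translocase, from 52.5 ± 3.71 to 35.2 ± 2.95 CPM, while BRCA2 was not called (log2 −0.13). Of 38 genes of the nuclear lamina, envelope and pores 16 fell and 2 rose (median −0.19), with 11 falls without Vehicle replicate 1 and 1 rise without any 1 Vehicle library. NUP210, a pore membrane protein, had the largest fall of these: 260.3, 275 and 237 CPM in Vehicle and 130.0, 122, 127 and 152 CPM in Docetaxel (log2 −0.95, SE 0.10, edgeR adjusted p = 8.38e-06). LMNB1, the B-type lamin, stood at 175, 170.5 and 141 CPM and 97.6, 93.1, 96.1 and 96.9 CPM (log2 −0.76), SUN2, which links the lamina to the cytoskeleton, fell by 0.61, and the A-type lamin gene LMNA was not called (log2 −0.09). Among 10 high mobility group genes 6 fell, 2 without Vehicle replicate 1 or 2 and 3 without Docetaxel replicate 1, 2 or 4. HMGB2, an architectural chromatin protein of dividing cells, fell from 162 ± 11.8 to 129.6 ± 5.93 CPM.

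Stress response genes rose in part. The integrated stress response slows translation through phosphorylation of eIF2-alpha and raises ATF4 targets. Of 21 tested genes of this response and of amino acid supply 9 rose, 2 fell and 10 were not called (median 0.14). Falls numbered 1 without Vehicle replicate 2 or Docetaxel replicate 2. The called members of this list named here all rose, while the lowest log2 in the list was −0.56. PPP1R15A, which recruits a phosphatase to reverse that step, stood at 111, 93.7 and 90.8 CPM in Vehicle and 411, 448, 354 and 332 CPM in Docetaxel (log2 1.97, SE 0.23, edgeR adjusted p = 2.86e-05). CHAC1, which degrades glutathione, went from 13.5 ± 1.52 to 40.2 ± 1.34 CPM, DDIT3, the CHOP factor, from 10.4 ± 1.16 to 24.3 ± 1.5 CPM, and SLC3A2, an amino acid transporter subunit, from 246 ± 19.7 to 497 ± 46.5 CPM. ATF4 itself stood higher in all 4 Docetaxel libraries but was not called (264, 285 and 259.6 CPM against 292, 304, 292 and 299 CPM, edgeR adjusted p = 0.246). Heat shock protein genes gave 1 rise, 0 without Vehicle replicate 2, and 3 falls of 21; HSP90B1, the chaperone of the endoplasmic reticulum, fell from 895 ± 47.4 to 684 ± 53.5 CPM (log2 −0.39).

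GADD45A, a growth arrest gene also induced by stress kinases, rose from 92.7, 84.4 and 75.7 CPM to 416, 426, 373 and 303 CPM (log2 2.17, edgeR adjusted p = 8.81e-05). GADD45B, a relative induced by NF-kappaB, rose from 45.7 ± 2.43 to 163 ± 11.2 CPM and PLK2, a kinase of centriole duplication, by 0.81.

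Of 20 tested BCL2 family genes 8 rose and 0 fell (median 0.12), with 5 without Vehicle replicate 2. PMAIP1, the pro-apoptotic NOXA gene, stood at 59.4, 70.1 and 69.96 CPM in Vehicle and 144, 147, 135 and 141 CPM in Docetaxel, tight in both groups (log2 1.09, SE 0.13, edgeR adjusted p = 2.84e-05). BCL2L11, the BIM gene, rose by 0.38, and BIK, another BH3-only gene, from 2.41 ± 0.196 to 4.26 ± 0.327 CPM. MCL1, the anti-apoptotic partner that NOXA binds, rose as well, from 295 ± 17.3 to 396 ± 28.7 CPM (log2 0.43), while BCL2L1, the BCL-XL gene, overlapped between groups (428 ± 33.1 and 426 ± 24.6 CPM) and BCL2 was low and not called (4.96 ± 1.25 and 4.58 ± 1.15 CPM). Among death receptor and caspase genes 9 of 22 rose and 1, TNFRSF1A (named after its values were seen), fell, with 5 rises without Vehicle replicate 2 or without both Vehicle replicate 3 and Docetaxel replicate 4. CFLAR, which blocks caspase-8, rose from 47.7 ± 1.75 to 77.5 ± 4.52 CPM, TNFRSF11B, a decoy receptor for TRAIL and RANKL, from 6.38 ± 0.491 to 14.8 ± 1.93 CPM, TNFRSF10A, a TRAIL receptor, by 0.52, and CASP4, an inflammatory caspase, by 0.63. FAS did not pass (log2 0.26, edgeR adjusted p = 0.249).

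Lipid synthesis genes were lower. Sterol and fatty acid synthesis is controlled by the SREBP factors; of 31 tested genes 20 fell and 0 rose (64.5%, median −0.39), with 12 falls without Docetaxel replicate 2. SCD, the desaturase that makes oleate, stood at 1133, 1262 and 1268 CPM in Vehicle and 624, 526, 719.8 and 831 CPM in Docetaxel; the Docetaxel libraries varied, with replicate 2 lowest and replicate 4 highest, and all lay below Vehicle (log2 −0.86, SE 0.17, edgeR adjusted p = 0.00202). FADS2, the desaturase of polyunsaturated fatty acids, went from 497, 535 and 496 CPM to 270.0, 247, 303 and 321 CPM (log2 −0.84). SREBF1, the SREBP1 gene, fell by 0.69. HMGCS1, an early enzyme of the sterol branch, was not called (147 ± 6.78 and 157 ± 9.53 CPM).

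Other metabolic lists gave few calls. Of 29 glycolysis and hypoxia genes 3 rose and 1 fell, with 1 rise without Vehicle replicate 2 or Docetaxel replicate 2, 0 falls without Vehicle replicate 2 or Docetaxel replicate 1 or 2 and 2 falls without Docetaxel replicate 3. ADM, a vasoactive peptide gene, rose from 21.4 ± 4.54 to 90.7 ± 11 CPM (log2 2.08), and VEGFA was not called (log2 0.31, edgeR adjusted p = 0.109). None of 13 mitochondrially encoded messenger RNAs was called by edgeR or by DESeq2, and 0 had an unadjusted edgeR p under 0.05. Over the alternatives their median log2 ran from −0.35 to 0.50, with at most 1 rise and at most 2 falls. Of 29 NRF2 and antioxidant genes 5 rose and 7 fell, with 3 falls without Vehicle replicate 2 and 4 without Docetaxel replicate 1 or 2. HMOX1, which breaks down haem, rose from 13.2 ± 2.64 to 21.2 ± 3.4 CPM and CAT, the catalase gene, fell from 113 ± 9.99 to 73.8 ± 8.36 CPM. Cytosolic ribosomal protein genes gave 5 falls and 0 rises of 69, under the background of 12.8%, with 1 to 3 falls without any 1 of Vehicle replicates 1 and 2 and Docetaxel replicates 1, 2 and 4, and 1 rise without Docetaxel replicate 3.

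Genes at the cell surface and in the matrix changed in both directions. Among metalloproteinases, their inhibitors and the plasminogen activator system 11 of 27 rose and 3 fell (median 0.20). SERPINB2, an inhibitor of plasminogen activators, stood at 22.5, 14.1 and 14.8 CPM in Vehicle and 130.5, 145, 129 and 65 CPM in Docetaxel; replicate 4 was well below the other treated libraries and still above all Vehicle libraries (log2 2.78, SE 0.43, edgeR adjusted p = 0.000385). PLAU, the urokinase gene, was abundant and rose by 0.34 (1334, 1423 and 1441 CPM and 1715, 1688, 1793 and 1879.7 CPM). MMP13, a collagenase, rose from 3.86 ± 1.27 to 11.5 ± 2.01 CPM, MMP9, a gelatinase, from 1.92 ± 0.228 to 6.31 ± 0.868 CPM and MMP3, a stromelysin, from 0.23 ± 0.117 to 2.48 ± 1.13 CPM, while MMP1 was not called (log2 0.36, edgeR adjusted p = 0.235). The list's rises numbered 9 to 13 over the alternatives.

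Of 36 collagens and other matrix genes 10 fell and 7 rose (median −0.13), with 4 rises without Vehicle replicate 1 or 2. COL6A3, a subunit of collagen VI, went from 400.3, 361 and 393 CPM in Vehicle to 184, 200.04, 166 and 230.2 CPM in Docetaxel (log2 −0.98, SE 0.17), and COL2A1, the cartilage collagen, from 11.4, 14.6 and 27.3 CPM to 3.27, 2.89, 2.56 and 4.87 CPM, where Vehicle replicate 3 was the highest. LAMB3, a chain of the epithelial laminin 332, rose from 304, 280.4 and 257 CPM to 601, 638, 594 and 503 CPM (log2 1.06). Integrin genes gave 5 rises and 3 falls of 19 (26.3% and 15.8%, against 13.2% and 12.8% of all genes). There were 3 rises without Vehicle replicate 2 and 1 fall without Vehicle replicate 2 or 3 or Docetaxel replicate 2. ITGAM, the alpha-M chain best known from myeloid cells, stood at 0.942, 0.142 and 0.62 CPM and 4.41, 5.99, 5.45 and 4.87 CPM (log2 3.17, SE 0.40); the other leukocyte markers listed with it reached no more than 26 counts per library, and PTPRC, the only other one tested, was not called. ITGB7 rose from 0.513 ± 0.383 to 1.87 ± 0.327 CPM and ITGA1 by 0.85.

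Targets of YAP and TGF-beta, 2 pathways of growth and matrix control, gave 12 rises and 2 falls of 29 (median 0.37), with 7 rises when Vehicle replicate 3 and Docetaxel replicate 4 were left out together and 1 fall without Vehicle replicate 2 or Docetaxel replicate 1, 2 or 4. INHBA, the activin A subunit, stood at 321, 282 and 285 CPM in Vehicle and 592, 584, 504 and 585 CPM in Docetaxel (log2 0.94, SE 0.13), with Docetaxel replicate 3 lowest. CCN1 and CCN2, matricellular YAP targets, rose from 303 ± 10.3 to 543 ± 40.8 CPM and from 76 ± 6.86 to 124 ± 11.6 CPM. BMP2, a ligand of the family, rose from 0.292 ± 0.0794 to 2.11 ± 0.452 CPM, TGFBI, a secreted adhesion protein, from 2.19 ± 0.505 to 10.04 ± 3.33 CPM and SMAD7, the inhibitory SMAD, from 0.968 ± 0.347 to 3.27 ± 1.6 CPM. Targets of actin and serum response factor gave 3 rises and 2 falls of 28 (10.7% and 7.14%, against 13.2% and 12.8% of all genes). Rises numbered 0 without Vehicle replicate 1 and 1 without Vehicle replicate 2 or 3 or Docetaxel replicate 1 or 2. Falls numbered 1 without Vehicle replicate 2 or Docetaxel replicate 1 or 2. VCL, the adhesion protein vinculin, fell by 0.31 and ACTB overlapped between groups (4721 ± 517 and 4978 ± 695 CPM).

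Ligands of natural killer cells and checkpoint genes gave 11 rises and 2 falls of 27 (median 0.35), with 6 rises without Vehicle replicate 1 or 2 and 7 without Docetaxel replicate 1 or 2. The falls numbered 0 without Docetaxel replicate 1 and 1 without any other library except Docetaxel replicate 4. CD274, the PD-L1 gene, stood at 22, 18.6 and 17.8 CPM in Vehicle and 50.6, 49.7, 43.5 and 43 CPM in Docetaxel, with a clear gap (log2 1.26, SE 0.18, edgeR adjusted p = 0.000167). ICAM1, an adhesion ligand of leukocyte integrins, went from 72.8 ± 7.35 to 132 ± 3.45 CPM (log2 0.85), and RAET1L, which encodes an NKG2D ligand and has close paralogs, from 1.78 ± 0.353 to 6.48 ± 0.521 CPM, while the related ULBP1 was not called (log2 0.02). Epithelial markers gave 4 rises and 2 falls of 25 and mesenchymal markers 4 rises and 3 falls of 17; the falls numbered 1 and 1 without Vehicle replicate 1, and the epithelial falls 1 without Vehicle replicate 2 or 3 or Docetaxel replicate 1 or 2 and 4 without Docetaxel replicate 3. In the epithelial list 16% rose and 8% fell (median −0.05), and in the mesenchymal list 23.5% and 17.6% (median 0.07). Over all genes 13.2% rose and 12.8% fell. The called members named here all rose, while the lowest log2 in the lists was −0.48 and −0.58. KRT17, a stress keratin, rose from 3.66 ± 0.648 to 12.8 ± 2.04 CPM and CLDN1, a tight junction protein, from 90.9 ± 0.591 to 148 ± 10.6 CPM. Among the mesenchymal markers that rose were 3 transcription factor genes of epithelial-mesenchymal transition: ZEB2 stood at 3.12, 2.41 and 2.29 CPM and 14.6, 15.8, 14.3 and 16.3 CPM (log2 2.55), SNAI1 went from 3.92 ± 1.0 to 9.48 ± 1.1 CPM and SNAI2 from 8.97 ± 2.01 to 21.4 ± 4.37 CPM, whereas ZEB1, of the same class, was not called (log2 0.08, edgeR adjusted p = 0.632).

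ABC transporters include the efflux pumps that export taxanes. Of 25 tested 7 fell and 2 rose (median −0.15), with 4 falls without Docetaxel replicate 1. ABCB1, the pump best known for taxane resistance, had 0 to 16 counts per library and was not tested, and ABCG2 was low and not called (0.413 ± 0.136 and 0.549 ± 0.347 CPM). ABCC2, an organic anion pump that also carries taxanes, rose from 1.45, 1.56 and 1.92 CPM to 7.11, 7.18, 5.45 and 5.11 CPM (log2 1.91, SE 0.27, edgeR adjusted p = 0.000181). ABCA5, a lipid transporter gene, rose by 0.62. ABCC3 fell from 56.7, 67.3 and 89.8 CPM to 41.1, 42.4, 39.2 and 53.7 CPM and ABCA2 from 73.8 ± 7.5 to 47.6 ± 6.58 CPM; for ABCC3 the highest Docetaxel library, replicate 4, lay just under the lowest Vehicle library.

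Among all protein-coding genes with a mean of at least 5 CPM in the higher group and no overlap between libraries, EGR1, IL24, H1-4 and IL6 led the 15 largest rises. Others were ARC, an activity-regulated gene of neurons (1.09, 1.21 and 0.806 CPM in Vehicle and 12.2, 13, 10.1 and 8.64 CPM in Docetaxel, log2 3.41), RRAD, a small GTPase gene (1.74 ± 0.34 to 14.3 ± 3.15 CPM), the muscle actin-binding gene XIRP2 (1.03 ± 0.235 to 8.48 ± 1.63 CPM) and the ubiquitin ligase gene HECW2 (1.33 ± 0.241 to 10.7 ± 1.67 CPM). The largest falls came from low or moderate levels and spread more between Vehicle libraries. MUC5B, a gel-forming mucin, stood at 3.84, 6.82 and 13.4 CPM and 0.64, 0.916, 1.02 and 3.04 CPM, PPP1R1B, the phosphatase inhibitor DARPP-32, at 4.27, 7.17 and 9.48 CPM and 1.28, 1.27, 1.11 and 1.83 CPM, and DEPTOR, an inhibitor of mTOR, at 7.1, 9.09 and 15.2 CPM and 3.34, 2.96, 2.81 and 4.38 CPM. Vehicle replicate 3 was the highest library for these 3 genes and Docetaxel replicate 4 the highest of its group, the same libraries that held the most mitochondrial counts; the part of that share was not tested. MAP2K6, the kinase directly upstream of p38, was steadier in Vehicle: 17.3, 18.2 and 20.6 CPM, against 3.34, 4.01, 3.49 and 7.97 CPM in Docetaxel (log2 −1.97, SE 0.34, edgeR adjusted p = 0.000913). SEMA6B, a guidance ligand, fell from 45.1 ± 7.27 to 15.4 ± 4.34 CPM. IGFBP5, a binding protein of insulin-like growth factors, had a narrow error, 74.3, 70.2 and 65.7 CPM against 28.2, 28.4, 26.2 and 34.9 CPM (log2 −1.25, SE 0.09, edgeR adjusted p = 9.07e-07). Falls of at least 2-fold numbered 32 without Vehicle replicate 3, 37 without Docetaxel replicate 1 or 2 and 114 without Docetaxel replicate 4.

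Of the most abundant called genes, FTH1, the ferritin heavy chain, rose from 4503 ± 222 to 5804 ± 186 CPM (log2 0.37) and ODC1, the first enzyme of polyamine synthesis, from 1168 ± 147 to 2033 ± 354 CPM (log2 0.80). LOXL1, a lysyl oxidase that crosslinks elastin, fell from 253 ± 32.9 to 110.2 ± 17.1 CPM, and the transcript antisense to it, LOXL1-AS1, from 319, 372 and 371 CPM to 122, 108, 136 and 152 CPM (log2 −1.45, SE 0.18). HIF1A-AS3, antisense at the HIF1A locus, rose from 15.1 ± 2.46 to 107 ± 18.4 CPM, whereas HIF1A itself, named here after its values were seen, stood at 584 ± 7.88 and 549.9 ± 15.9 CPM and was not called. PVT1, a long noncoding RNA next to MYC, rose from 31.3 ± 1.66 to 63.7 ± 4.7 CPM. The library kit keeps strand, but no source used here gives the strand setting of the counting, and values of antisense genes and of their partners are uncertain.

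Structure and promoter letters were described for the genes that rose at least 2-fold. Of 472 such protein-coding genes 6.57% had a single exon, against 1.63% of all 12655 tested and 6.67% of the 45 that fell at least 2-fold. Their median span was 22827.5 against 34324 bases over all tested, and their median exonic length 4060.5 against 5162 bases. They were also scarcer, with a median level of 2.66 against 34.5 CPM, and the part of abundance in these values was not tested. Among 462 promoters of genes that rose at least 2-fold the TATA box TATAAA was found in 19.7%, against 5.71% of 11205 promoters of tested genes and 3.39% of those of all genes that fell, with no minimum change. Without the clustered histones it was found in 16.4% of 432. The AP-1 site TGANTCA was found in 11.3%, 4.18% and 2.32% of the same 3 sets, the CArG box in 3.25%, 0.982% and 0.752%, and the interferon response element in 6.06%, 2.26% and 1.76%. The CCAAT box stood at 39.2%, 35.2% and 37.4%. Among promoters of all 1383 genes that rose, also with no minimum change, the TATA box was found in 12.2% and the AP-1 site in 8.10%. In that set the CArG box was found in 1.45%, the interferon response element in 3.98% and the CCAAT box in 36.7%. These shares carry no test, genes are not replicates, and matches say nothing of binding.

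Docetaxel libraries were next compared directly with Adapalene libraries, which uses the same Docetaxel libraries as above and none of the Vehicle libraries. In that comparison 4678 genes were called (29.7%), 2219 higher (14.1%) and 2459 lower (15.6%) with docetaxel. Clustered histones were higher in 32 of 35 cases and lower in 0; H1-2 stood at 40.6, 38 and 41.1 CPM in Adapalene and H2BC12 at 31.9, 29.2 and 31.4 CPM, far below Docetaxel (log2 of Docetaxel over Adapalene 2.33 and 1.97). NF-kappaB genes were higher in 13 of 20 and lower in 0, and immediate-early genes higher in 14 of 26 and lower in 2, with EGR1 at 4.31, 2.34 and 7.09 CPM in Adapalene (log2 4.42, SE 0.37, edgeR adjusted p = 2.29e-06). Interferon-stimulated genes were higher in 16 of 39 and lower in 2. DNA replication genes were lower in 19 of 44 and higher in 0, and lipid synthesis genes lower in 14 of 31 and higher in 0. Mitotic genes were higher in 18 of 42 and lower in 3; PLK1 stood at 74.9, 72.6 and 82.6 CPM in Adapalene, below every Docetaxel library (log2 1.09, SE 0.12, edgeR adjusted p = 2.8e-05). CDKN1A did not differ between the drugs beyond its spread, at 106, 90.8 and 126 CPM in Adapalene (log2 −0.07, edgeR adjusted p = 0.74).

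The effect of docetaxel was also set against its effect in cells that received adapalene too, by the interaction, the change from Adapalene to Combo minus that from Vehicle to Docetaxel. It was called for 227 genes (1.44%), 194 with a lower value (1.23%) and 33 with a higher value (0.21%). The count fell to 87 and 59 without Vehicle replicates 1 and 2, to 94 and 115 without Docetaxel replicates 1 and 2 and to 116 when Vehicle replicate 3 and Docetaxel replicate 4 were left out together, and DESeq2 called 485. EGR1 stood at 4.31, 2.34 and 7.09 CPM in the Adapalene libraries and 12.8, 4.93 and 19.2 CPM in the Combo libraries, and the lowest Docetaxel library, at 78.9 CPM, lay above all of them (interaction log2 −4.14, SE 0.60, edgeR adjusted p = 0.00399). IL24 stood at 11.3, 6.13 and 14.4 CPM and 24.4, 8.2 and 26 CPM (interaction log2 −3.35, SE 0.51, edgeR adjusted p = 0.00607). Both genes varied between the libraries of a group, and in both the Combo range lay below the Docetaxel range. The interaction also holds the Docetaxel and Vehicle libraries, with the sign of their difference reversed. Genes and lists picked with that difference known therefore lean to the opposite sign by selection, to an extent that was not tested.

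Interaction values kept their call in every alternative run for FOS (−2.35), ARC (−2.53), RSAD2 (−1.82), DUSP10 (−1.48), H1-2 (−1.22), IL1RL1 (−1.20), CDKN1A (−1.16), IFIT2 (−0.99) and H2BC12 (−0.81), all negative, and for NUP210 (0.90), IGFBP5 (0.79) and SKP2 (0.60), all positive where the docetaxel change was a fall. H1-2 stood at 68.7, 70.1 and 94.6 CPM in Combo, above every Adapalene library, whereas IFIT2 was already at 204, 181 and 196 CPM with adapalene and at 214, 197 and 241 CPM in Combo, which overlap. CDKN1A stood at 146, 99.2 and 144 CPM in Combo, a range that overlaps those of Docetaxel and of Adapalene. Calls such as those of IL6 (−2.48) and CXCL2 (−1.52) did not hold when single libraries were left out (highest edgeR adjusted p = 0.143 and 0.148). By list, 14 of 39 interferon-stimulated genes, 9 of 26 immediate-early genes and 8 of 35 clustered histones had a lower interaction value and 0 a higher one, against 1.23% of all genes. DNA replication (3 of 44) and lipid synthesis (4 of 31) had higher values and 0 lower ones, against 0.21%.

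**Figure D5:**
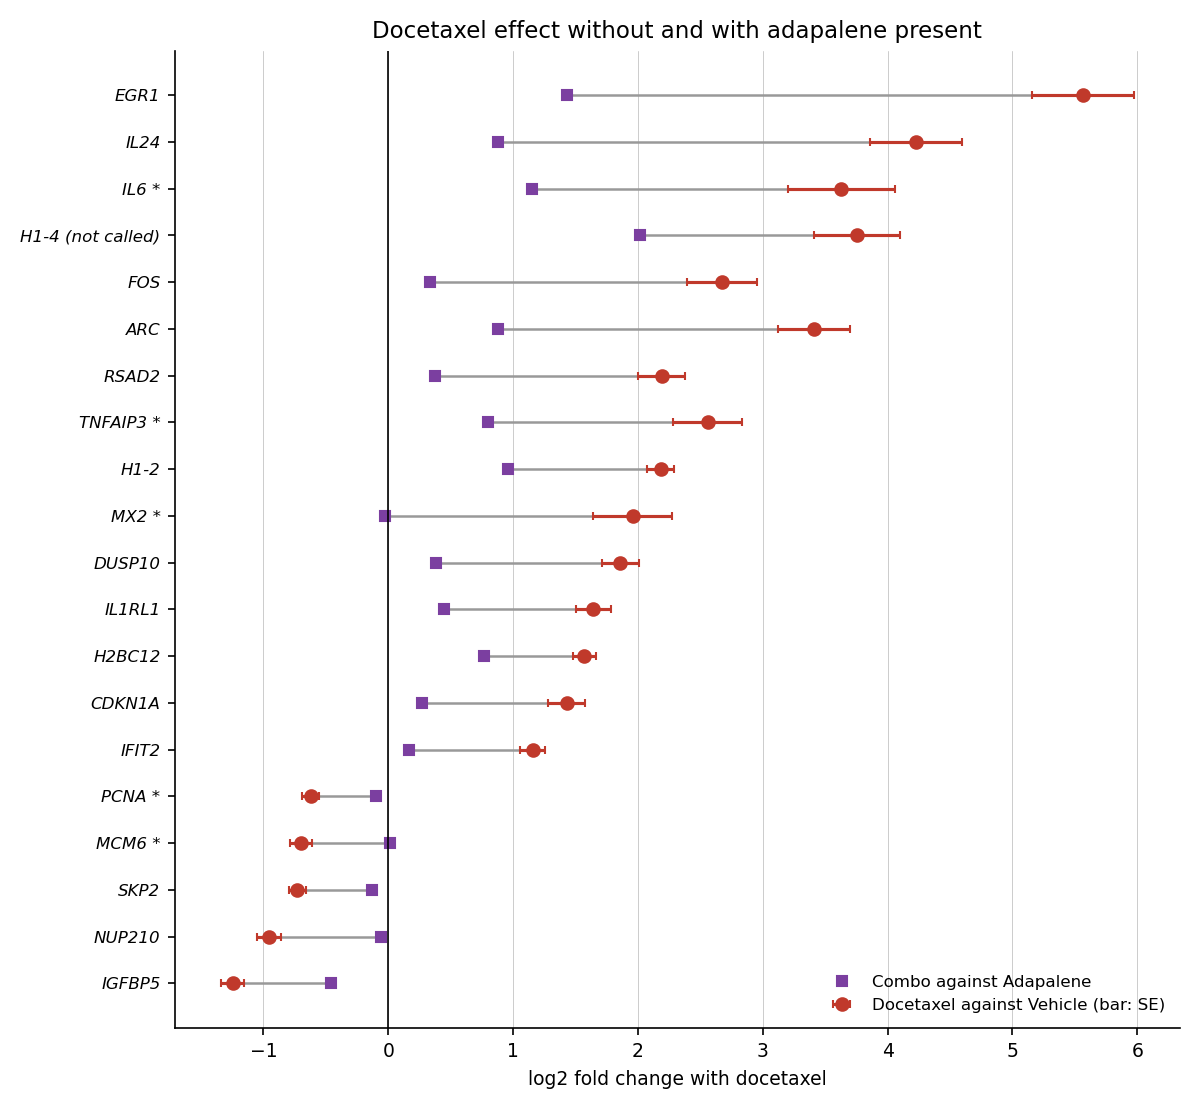
Log2 fold change with docetaxel in cells without adapalene (Docetaxel against Vehicle, red circles, bars are the SE) and with it (Combo against Adapalene, purple squares) for 20 genes; a grey line joins the 2 values of a gene, and an asterisk marks genes whose interaction call was lost in at least 1 alternative. Squares lie nearer to 0 than circles for every gene shown, and for H1-4 the interaction was not called. The genes were picked with the red values known, and the interaction reuses those libraries.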

How the data were processed

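RNA-seq counts per gene were deposited by the authors as 1 table of whole numbers for 13 libraries and 67882 identifiers. Tools named, per the submitters' processing notes, are STAR 2.7.10a, FastQC and DESeq2, with genome build GRCh38.p13; no source used here gives the counting program or its strand setting. The labels' protocols describe poly(A) selection and strand-specific, single-end reads.

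Genes were kept with filterByExpr by group (count minimum 10, total minimum 15), scaled by TMM and fitted with the edgeR 4.0.16 quasi-likelihood test in R 4.3.3 on all 13 libraries, with 1 mean per group and 9 residual degrees of freedom. P-values were adjusted by Benjamini-Hochberg over the 15734 genes tested at 0.05. CPM carry no prior count. Contrasts were Docetaxel minus Vehicle, Docetaxel minus Adapalene, and the interaction of docetaxel with adapalene. Groups came from the labels, and no library was left out. Gene positions are from GENCODE 29 and promoters from RefSeq; 11205 tested genes matched a promoter entry.

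Members and the 47 lists (1258 symbols, 1255 in the table) were chosen with earlier results of these data known. Named genes were each list's anchors and up to 4 called members with the largest changes, the 15 largest rises and falls among called protein-coding genes of at least 5 CPM in the higher group whose libraries did not overlap, and the 5 most abundant called genes; others are said to be named after their values were seen, and some genes and lists are not reported here. Alternatives were other scalings, filters and samples, a replicate block and DESeq2 1.42.0 (limma 3.58.1 was loaded by edgeR). The test was checked on simulated counts.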

Additional observations from a re-analysis of the deposited data

Results flagged for a closer look

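In 13 named genes 1 of the 4 Docetaxel libraries stood apart, its gap to the nearest neighbour, as a share of the group's range, exceeding Dixon's 95% critical value; chance flags about 1 in 20 such groups, and 209 genes were examined. Docetaxel replicate 3 was the low library for NFKBIA (0.941), INHBA (0.909), VCL (0.883) and BCL2L11 (0.851) and the high library for BRCA1 (0.868) and BCL2L1 (0.831). Docetaxel replicate 4, which also held the largest mitochondrial share, was high for MAP2K6 (0.855), MUC5B (0.841) and XAF1 (0.833) and low for KRT17 (0.898) and CCND1 (0.848). Docetaxel replicate 2 was high for CIART (0.862), and Docetaxel replicate 1 was low for CSF3 (0.875).

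The effect of docetaxel differed with and without adapalene, by the interaction test, in 38 named genes, and the values below are interaction log2 values. Immediate-early and signalling genes had negative values: EGR1 −4.14, ARC −2.53, FOS −2.35, RRAD −1.90, ATF3 −1.75 and DUSP10 −1.48. Inflammatory genes followed, IL24 with −3.35, IL6 −2.48, TRAF1 −2.11, IL1A −1.85, TNFAIP3 −1.76, CXCL2 −1.52, IL1RL1 −1.20, CD274 −1.09 and NFKBIA −0.74. Interferon genes gave −1.99 for MX2, −1.82 for RSAD2, −1.32 for IFIT1, −0.99 for IFIT2 and −0.90 for IRF1. Histone genes gave −1.22 for H1-2 and −0.81 for H2BC12. Stress, death and other rising genes gave −2.36 for XIRP2, −1.77 for ABCC2, −1.49 for PPP1R15A, −1.17 for CHAC1, −1.16 for CDKN1A, −0.94 for PMAIP1 and −0.75 for LAMB3. Genes that fell with docetaxel had positive values, 1.14 for LOXL1-AS1, 0.90 for NUP210, 0.81 for FADS2, 0.79 for IGFBP5, 0.71 for MCM6, 0.63 for E2F1, 0.61 for TBCD, 0.60 for SKP2 and 0.53 for PCNA. Signs opposite to the docetaxel change are partly set by the choice of genes, since the interaction holds that change reversed.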

How the results depend on the processing

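No call among 209 named genes changed direction in the 15 alternatives, and 167 of 168 called genes were called in each alternative that tested them; the exception was PIDD1. Called genes were largely named for large changes in the main fit, so their stability does not stand for calls in general. Of the named genes not called, 8 were called in at least 1 alternative, namely CCNE2, DUSP6, EGFR, FOSL1, MKI67, MMP1, TUBB6 and VEGFA. Leaving out 1 library in turn gave 2347 to 3760 called genes (4082 with all), 1295 to 1938 higher and 1052 to 1822 lower. Rises of at least 2-fold then numbered 656 to 834 and falls of at least 2-fold 32 to 114. Leaving out Vehicle replicate 3 and Docetaxel replicate 4 together gave 1336 genes lower and an interaction count of 116. With the stricter filter, 50 counts, rises of at least 2-fold numbered 355 and such falls 31, where fewer genes were tested. With no filter beyond 1 count such falls numbered 91 and the interaction 946, and DESeq2 gave an interaction count of 485; the cause was not tested. The interaction count ran from 59 to 212 over single libraries left out, against 227, and 14 of 38 named interaction calls held in all 14 alternatives run for it. Of 130 named calls against Adapalene 112 held in all of them.

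Replicate numbers did not pair the libraries: deviations from group means correlated at 0.115, −0.113 and −0.249 for numbers 1 to 3, and up to 0.341 across numbers (Vehicle replicate 3 with Docetaxel replicate 4). With the replicate block 3792 genes were called, falls of at least 2-fold numbered 114 and interaction calls 199. Number 4 occurs only in the Docetaxel group, so in that fit Docetaxel replicate 4 has its own term and adds nothing to the fitted contrasts. Depth limited genes with few counts, such as IFNB1, IFNL1 and ABCB1.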

Other observations

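Outside the lists, 4 genes of the circadian clock rose with docetaxel; they were picked for their rise after the values were seen, and clock genes as a group were not counted. NR1D1, the REV-ERB-alpha repressor, stood at 18.3, 17.3 and 20.2 CPM in Vehicle and 82, 108, 71.5 and 96.7 CPM in Docetaxel, with every treated library above every Vehicle library (log2 2.27, SE 0.25, edgeR adjusted p = 2.2e-05). PER1, a core repressor of the clock, went from 31.5, 35.1 and 34.3 CPM to 86.4, 88, 75.1 and 94.2 CPM (log2 1.35), again without overlap. CIART, a repressor of the clock, rose from 17.7 ± 0.769 to 36.6 ± 2.93 CPM (n = 3 and 4) and PER2 from 15.7 ± 1.69 to 23.1 ± 1.69 CPM. Against Adapalene the difference was called for NR1D1, PER1 and CIART (log2 1.29, 0.85 and 0.72) and not for PER2 (log2 0.18, edgeR adjusted p = 0.217). The interaction was not called for these 4 genes.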
